A study of Homo sapiens with 32 samples.

Results

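The transcriptional difference made by paclitaxel was measured over all 32 RNA sequencing libraries of the series. The 16 libraries of cells given paclitaxel, alone or with SM08502, were set against the 16 libraries of cells given vehicle or SM08502. Each of 4 endometrial cancer cell lines received each of 4 treatments for 24 h, with 2 libraries in each of the 16 groups. Every comparison was made inside blocks of 1 line and 1 SM08502 state, so each of the 8 blocks held 2 libraries with paclitaxel and 2 without.

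The lines were Ishikawa, labelled as wild type for CTNNB1 (the gene of beta-catenin), and Ishikawa-S33Y, SNGM and HEC265, all labelled as CTNNB1-mutated. Each drug was given at the IC50 for viability of the line, and the vehicle was 0.1% DMSO. Paclitaxel was at 11 nM in Ishikawa, 6 nM in Ishikawa-S33Y, 11.7 nM in SNGM and 5.6 nM in HEC265, and SM08502, an inhibitor of the CDC-like kinases that phosphorylate splicing factors, at 80, 85, 350.7 and 149 nM in the order just given. The dose, and an RNA input of 350 ng in Ishikawa against 500 ng elsewhere, cannot be told apart from the line. The labels describe duplicate plating and no independent repeats, so p-values measure only the spread between these libraries, which may be technical. These are bulk libraries, in which a change in the share of cells that make a transcript and a change in its amount per cell cannot be told apart.

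Paclitaxel is a taxane that binds beta-tubulin inside the microtubule and holds the polymer together, which blocks cells in mitosis and also changes the balance between polymer and free dimers in interphase. Microtubules are built from dimers of alpha- and beta-tubulin, each made by a family of isotype genes, while gamma-, delta- and epsilon-tubulin serve microtubule nucleation and centrioles. Cells are known to adjust the stability of alpha- and beta-tubulin mRNA to the pool of free dimers, a control called tubulin autoregulation.

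Depth was 13026400 to 34127623 reads in 30 libraries, and the second combination libraries of Ishikawa-S33Y and SNGM stood apart with 2991041 and 1607038. Of 10 markers of endometrial epithelium 7 were above 1 CPM in every library, with EPCAM at 129 to 320 CPM, and their sum was 962 to 3397 CPM with paclitaxel and 1079 to 3762 CPM without. Stromal markers summed to 5.74 to 1105 CPM with paclitaxel and 4.42 to 1164 CPM without, nearly all of the upper end being COL1A1. Immune markers summed to 6.75 to 52.7 CPM and 6.50 to 41.8 CPM, and endothelial markers to 1.96 to 12.4 CPM and 1.31 to 12.6 CPM, in the same order. No epithelial marker of the 10 tested was called for paclitaxel (0, with 1 at an unadjusted p under 0.05), nor any of the 13 stromal, immune and endothelial markers tested (0, with 0 at an unadjusted p under 0.05; limma).

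Of 17011 genes tested, 13 were called higher with paclitaxel (0.0764%) and 5 lower (0.0294%; limma, Benjamini-Hochberg adjusted p under 0.05), and 6 of the 13 were tubulin genes. These were TUBB3, TUBB2A and TUBB4B of the beta family and TUBA1A, TUBA1B and TUBA4A of the alpha family. The largest of the 18 differences was 0.48 on the log2 scale, for TUBA1A. Values are log2(CPM + 1), where CPM is reads per 1000000 reads counted and 1 is added before the logarithm, so the differences of low genes are understated. At an unadjusted p under 0.05 there were 1884 genes (11.1%), of which 1236 were higher and 648 lower, and the median difference of all genes was 0.006. The split of calls moved with scaling: 72.2% were higher as deposited, 31.2% of 16 once each library was re-centred on its median, 36.8% of 19 once quantiles were equalised and 28.3% of 113 with voom on recovered reads.

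The upstream sequences of the 6 called tubulin genes are shown for the promoter motifs they hold, of which none is common to all 6. Each is the RefSeq sequence of the 150 bases before the start site on GRCh38.p14, 5′ to 3′, with TATAA and CCAAT in capitals where they occur on either strand (CCAAT on the other strand reads ATTGG). For TUBB3, which has several RefSeq starts, the second is shown; the first holds none of the 3 motifs searched. The TUBA4A window lies inside the span of the whole gene.
TUBB3, chr16:89923192-89923341, plus strand: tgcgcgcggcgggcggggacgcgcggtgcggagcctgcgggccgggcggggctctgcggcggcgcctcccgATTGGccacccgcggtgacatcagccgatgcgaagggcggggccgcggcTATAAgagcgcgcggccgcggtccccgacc
TUBA1A, chr12:49189081-49189230, minus strand: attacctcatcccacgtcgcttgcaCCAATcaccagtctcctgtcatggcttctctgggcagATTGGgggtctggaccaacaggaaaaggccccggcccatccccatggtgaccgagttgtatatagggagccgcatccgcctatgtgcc
TUBA4A, chr2:219253919-219254068, minus strand: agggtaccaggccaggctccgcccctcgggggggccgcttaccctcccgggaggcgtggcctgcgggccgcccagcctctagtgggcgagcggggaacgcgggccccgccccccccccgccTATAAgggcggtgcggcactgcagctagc
TUBB2A, chr6:3157545-3157694, minus strand: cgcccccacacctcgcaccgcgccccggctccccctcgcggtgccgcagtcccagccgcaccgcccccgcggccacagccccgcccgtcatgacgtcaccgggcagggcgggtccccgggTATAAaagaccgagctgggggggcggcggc
TUBB4B, chr9:137241137-137241286, plus strand: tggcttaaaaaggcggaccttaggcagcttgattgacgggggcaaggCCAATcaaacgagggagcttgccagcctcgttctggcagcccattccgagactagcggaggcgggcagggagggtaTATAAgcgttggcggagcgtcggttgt
TUBA1B, chr12:49131396-49131545, minus strand: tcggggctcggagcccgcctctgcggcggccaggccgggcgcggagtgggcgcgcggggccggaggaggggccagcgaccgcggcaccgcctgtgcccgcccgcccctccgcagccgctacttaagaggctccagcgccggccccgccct
In these windows TATAA was found at -30 in TUBB3 and TUBB2A, -27 in TUBB4B and -29 in TUBA4A, counted from -1 as the base before the start. TUBA1A held CCAAT at 2 places and no TATAA, and TUBA1B held neither. The 14 tubulin genes examined had 19 such windows, of which 5 held TATAA, 6 CCAAT and 9 GGGCGG, on either strand. Of all 35116 RefSeq windows of this length, 12.1% held TATAA, 23.5% CCAAT and 36.8% GGGCGG. Among the 6 called genes, counting any start, TATAA was in 4, CCAAT in 3 and GGGCGG in 4. A match describes the letters only.

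TUBB3, the class III beta-tubulin known as a neuronal isotype that many carcinomas also make (chr16:89921925-89936097), gave the smallest p of all genes. In Ishikawa it was at 62.8 and 62.0 CPM with vehicle, 80.2 and 63.5 with paclitaxel, 34.3 and 30.2 with SM08502, and 40.1 and 40.9 with both. In Ishikawa-S33Y the 4 pairs were 55.5 and 52.4 with vehicle, 72.8 and 70.8 with paclitaxel, 26.7 and 24.4 with SM08502, and 29.6 and 30.4 with both. Within each of these pairs of groups, both libraries with paclitaxel stood above both without it. SNGM made far more, at 328 and 290 CPM with vehicle, 386 and 372 with paclitaxel, 153 and 160 with SM08502, and 225 and 200 with both. HEC265 gave 44.3 and 43.0, 55.6 and 56.2, 27.0 and 28.8, and 34.5 and 29.5 CPM in the same order. TUBB3 was thus higher in all 8 blocks with no overlap of libraries in any, by 0.19 to 0.44. The fitted difference was 0.30 ± 0.04 (log2, SE, 23 residual degrees of freedom; adjusted p = 6.21e-05, limma), a rise of 23.3% on that scale. Of the 17011 genes, 2 had libraries separated upward in 8 of 8 blocks (0.0118%), TUBB3 and TUBA1B, and 0 had them separated downward (0%). The shares of all genes separated in 6 or 7 blocks were not counted. IDI1, a cholesterol synthesis gene that was not called and is named after its value was seen, separated upward in 7. Counts of separated blocks come from the same values as the calls, so they are no separate evidence.

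TUBA1A, an alpha-tubulin best known from developing neurons (chr12:49184795-49189080), showed the largest difference of the called genes. In SNGM its levels were 411 and 314 CPM with vehicle, 586 and 465 with paclitaxel, 217 and 228 with SM08502, and 412 and 439 with both. Ishikawa-S33Y held 84.1 and 89.1, 121 and 123, 85.5 and 79.4, and 114 and 109 CPM in the same order, and Ishikawa 180 and 173, 223 and 252, 133 and 201, and 258 and 254 CPM. The paclitaxel libraries lay above the others in every one of these 6 blocks. In HEC265 the gene was nearly silent, between 1.74 and 3.38 CPM, and its libraries overlapped in 1 of the 2 blocks. Over all blocks the difference was 0.48 ± 0.06 (log2, SE; adjusted p = 0.000194, limma), or 39.7% higher.

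TUBA4A, an alpha-tubulin whose gene (chr2:219249710-219254740) overlaps STK16 and TUBA4B, ranged from 79.6 to 210.1 CPM (median 137) with paclitaxel and from 54.4 to 181 CPM (median 114) without. Its libraries separated in 7 of 8 blocks, with 174 and 166 CPM on paclitaxel against 181 and 151 CPM on vehicle in Ishikawa as the exception. The difference was 0.27 ± 0.04 (log2, SE; adjusted p = 0.00182, limma). TUBB2A (chr6:3153666-3157544), a beta isotype also made in brain, ranged from 11.3 to 51.8 CPM (median 28.7) with paclitaxel and from 10.2 to 42.5 CPM (median 20.0) without. It separated in 6 of 8 blocks and differed by 0.34 ± 0.06 (adjusted p = 0.0191, limma).

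TUBA1B (chr12:49127782-49131395), an alpha-tubulin made in most tissues, held 1791 to 4740 CPM (median 3125) with paclitaxel and 1319 to 4339 CPM (median 2863) without. Its 8 blocks did not overlap, but in HEC265 the gap was narrow: 2945 and 2904 CPM with paclitaxel against 2847 and 2903 CPM with vehicle. The difference was 0.27 ± 0.05 (log2, SE; adjusted p = 0.0196, limma), and this call depended on scaling, with an adjusted p of 0.0811 after median re-centring and 0.224 after quantile normalization. TUBB4B (chr9:137241287-137243707, overlapping CIMIP2A), a beta-tubulin made in most tissues, held 397 to 1041 CPM (median 906) with paclitaxel and 307 to 973 CPM (median 745) without. It separated in 7 of 8 blocks, by 0.22 ± 0.04 (adjusted p = 0.0191, limma).

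**Figure D1:**
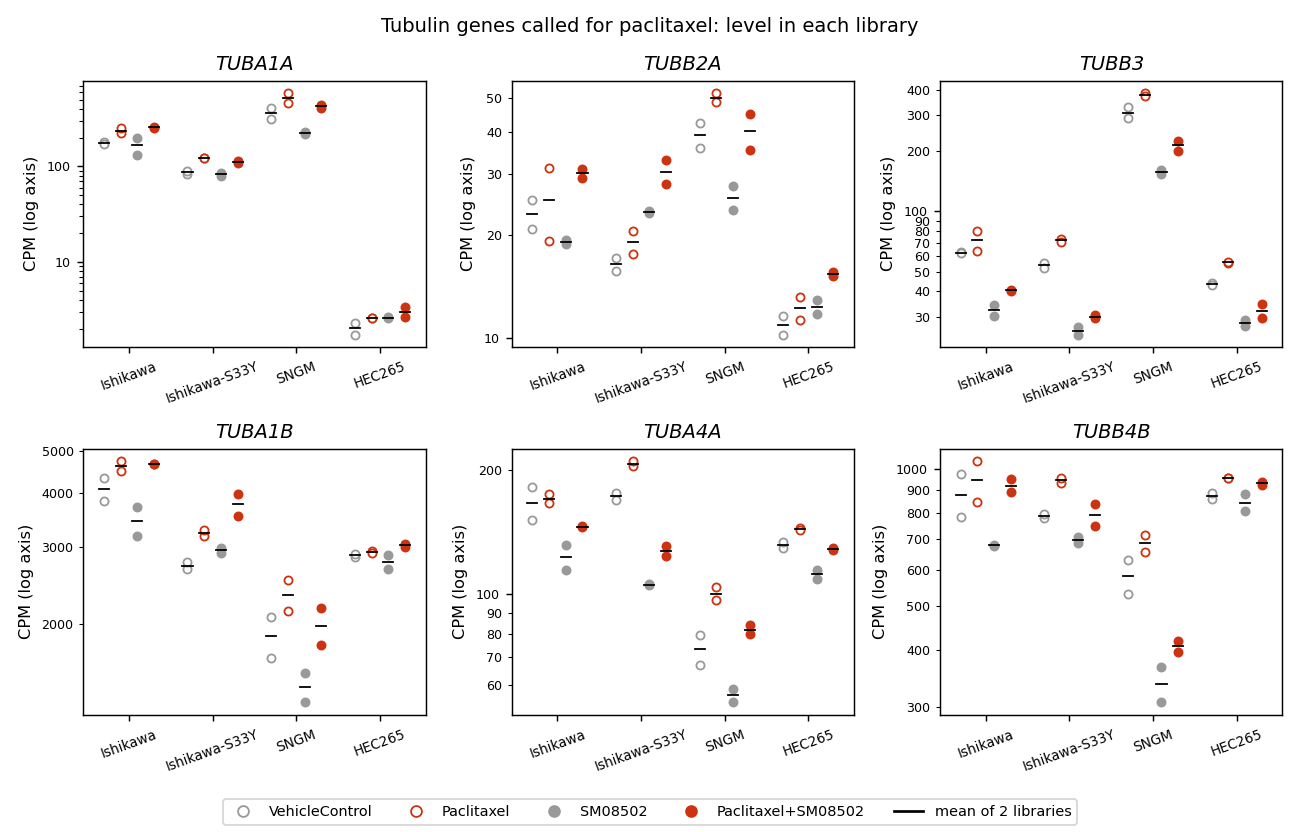
CPM of the 6 called tubulin genes on log axes, 1 point per library, grouped by line and treatment; red points had paclitaxel, filled points had SM08502, and black bars are means of 2 libraries. TUBB3 libraries with paclitaxel lie above those without in each of the 8 pairs of groups, and TUBA1A is at 1.74 to 3.38 CPM in HEC265.

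The list of tubulin isotypes held 14 genes, all of them tested: 6 rose, 0 fell and 8 were not called. The median difference of the list was 0.16, against 0.006 for all genes, and 14 of 14 estimates were above 0, against 53.3% of all genes; under median re-centring and quantile normalization 13 were, and under voom or array weights 12, and by leaving out single libraries 13 or 14. By family, 3 of 4 alpha-tubulins rose (median 0.27) and 3 of 6 beta-tubulins (median 0.20), while 0 of the 4 gamma-, delta- and epsilon-tubulins were called (median 0.03). TUBA1C, the remaining alpha isotype, differed by 0.14 ± 0.04 (adjusted p = 0.200), and TUBB, the main beta-tubulin of dividing cells, by 0.17 ± 0.06 (adjusted p = 0.253). TUBB6 gave 0.14 ± 0.04 (adjusted p = 0.234) and TUBB2B, between 0.0893 and 28.4 CPM, 0.09 ± 0.13 (adjusted p = 0.818, limma). TUBG1, the gamma-tubulin of the nucleating ring complex, stood at 0.00 ± 0.04 (adjusted p = 0.998), TUBG2 at 0.04 ± 0.08, TUBD1 at 0.02 ± 0.04 and TUBE1 at 0.11 ± 0.06.

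Summed over the 10 alpha and beta genes, tubulin took a larger mean share of all reads with paclitaxel in 8 of 8 blocks, with no overlap of libraries in 7. The exception was Ishikawa without SM08502, at 0.758% ± 0.054 with vehicle and 0.809% ± 0.027 with paclitaxel (SD, n = 2). With SM08502 the Ishikawa share was 0.613% ± 0.037 without paclitaxel and 0.809% ± 0.004 with it (SD, n = 2), the widest step of the 8. In SNGM on vehicle it was 0.557% ± 0.062 and with paclitaxel 0.687% ± 0.046, and in HEC265 0.683% ± 0.003 and 0.697% ± 0.001 (SD, n = 2). The smallest step was that of HEC265 without SM08502. Tubulin genes have near-identical coding sequences and pseudogenes, so reads may have been split among them; of 8 other alpha and beta tubulin genes and pseudogenes in the table, named by symbol after the values were seen, 0 were called (1 at an unadjusted p under 0.05; limma) and 7 lay above 0.

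**Figure D2:**
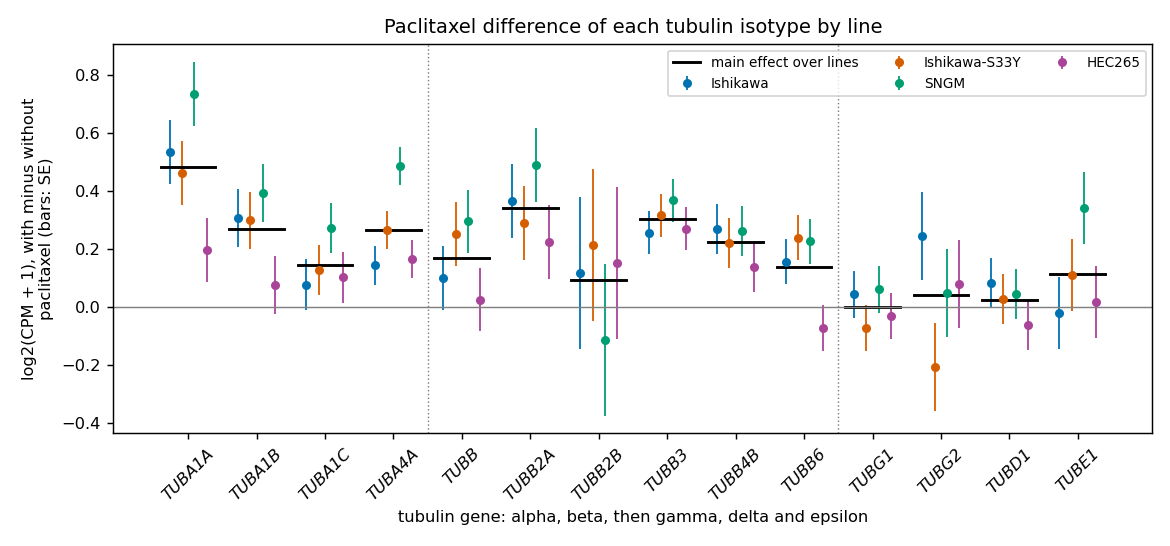
Difference of each of the 14 tubulin genes, on the log2(CPM + 1) scale, in each line (4 libraries with and 4 without paclitaxel; bars are SE) and over all lines (black). The 4 alpha genes are above 0 in all 4 lines, while the 4 gamma, delta and epsilon genes run from -0.21 (TUBG2 in Ishikawa-S33Y) to 0.34 (TUBE1 in SNGM).

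By line, the 6 called tubulins were above 0 in all 4 lines. TUBB3 differed by 0.37 in SNGM, 0.32 in Ishikawa-S33Y, 0.27 in HEC265 and 0.26 in Ishikawa (each ± 0.07, SE; unadjusted p = 0.715 among lines, limma F test). TUBA1A spread from 0.20 ± 0.11 in HEC265 to 0.74 ± 0.11 in SNGM, and TUBA4A from 0.14 ± 0.07 in Ishikawa to 0.49 ± 0.07 in SNGM. The test of a difference among lines, adjusted over all genes, passed for neither (limma F test, unadjusted p = 0.0170 for TUBA1A and 0.00454 for TUBA4A, both with an adjusted p of 1.00). The median over the 14 tubulins was lowest in HEC265, at 0.09 with 11 genes above 0, and highest in SNGM, at 0.28 with 13 above 0. Ishikawa gave 0.15 with 13 above 0, and Ishikawa-S33Y 0.23 with 12. The number of tubulins called over the other lines fell to 1 without Ishikawa-S33Y, 2 without SNGM and 3 without HEC265, and was 5 without Ishikawa; TUBB3 was called in all 4 of these fits.

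CLK1, a CDC-like kinase of the family that SM08502 inhibits, rose by 0.26 ± 0.05 (log2, SE; adjusted p = 0.0191, limma). With vehicle and then paclitaxel it was at 26.6 and 28.5 against 33.4 and 41.5 CPM in Ishikawa, and at 17.6 and 18.6 against 22.6 and 24.9 CPM in Ishikawa-S33Y. SNGM gave 25.6 and 26.5 against 30.5 and 26.1 CPM, and HEC265 15.1 and 16.3 against 19.0 and 20.0 CPM. With SM08502 present the level of CLK1 was 50.7 to 95.2 CPM, and 60.9 to 96.4 CPM once paclitaxel was added. All 8 blocks were above 0, and libraries separated in 6. The adjusted p was 0.0811 with median re-centring and 0.0526 with quantile normalization, and voom called it at 0.0484. Of the 20 splicing kinases and SR proteins, CLK1 was the only gene called higher and 0 were called lower. The list's median was 0.05 and 18 members lay above 0, or 11 with voom, against 53.3% of all genes in the main fit. CLK2 differed by 0.03 ± 0.04 (adjusted p = 0.817) and SRSF3 by 0.01 ± 0.04 (adjusted p = 0.945).

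A further 6 genes rose. CHMP4C, an ESCRT-III subunit that acts in abscission at the end of cell division, was at 16.1 to 48.8 CPM (median 35.7) with paclitaxel and 15.3 to 42.3 CPM (median 30.9) without. Its libraries separated in 7 of 8 blocks, by 0.19 ± 0.04 (adjusted p = 0.0191, limma; 0.0526 with median re-centring). FBXW7, the substrate receptor of an SCF ubiquitin ligase that degrades cyclin E and MYC, ranged from 24.1 to 62.7 CPM (median 40.1) with paclitaxel and from 22.5 to 49.1 CPM (median 34.6) without. The FBXW7 difference was 0.17 ± 0.03 (adjusted p = 0.0323, limma), and its gene overlaps FBXW7-AS1 and MIR3140. KBTBD8, a substrate adaptor of CUL3 ubiquitin ligases, rose by 0.22 ± 0.05 (adjusted p = 0.0451), with 4.15 to 35.4 CPM against 3.52 to 32.8 CPM.

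ISCU, the scaffold protein of iron-sulfur cluster assembly, rose by 0.20 ± 0.04 (adjusted p = 0.0259), but in HEC265 with SM08502 the libraries with paclitaxel, at 110.4 and 103 CPM, lay level with those without, at 106 and 110.5 CPM. LSM8, a subunit of the ring that binds U6 small nuclear RNA, rose by 0.17 ± 0.03 (adjusted p = 0.0271) and ZDHHC17, a palmitoyltransferase, by 0.16 ± 0.03 (adjusted p = 0.0401, limma). ZDHHC17 was above 0 in 7 of 8 blocks and LSM8 in all 8. The calls of ISCU, LSM8, FBXW7, ZDHHC17 and KBTBD8 were lost under quantile normalization, median re-centring and voom alike, at an adjusted p between 0.0526 and 0.121.

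**Figure D3:**
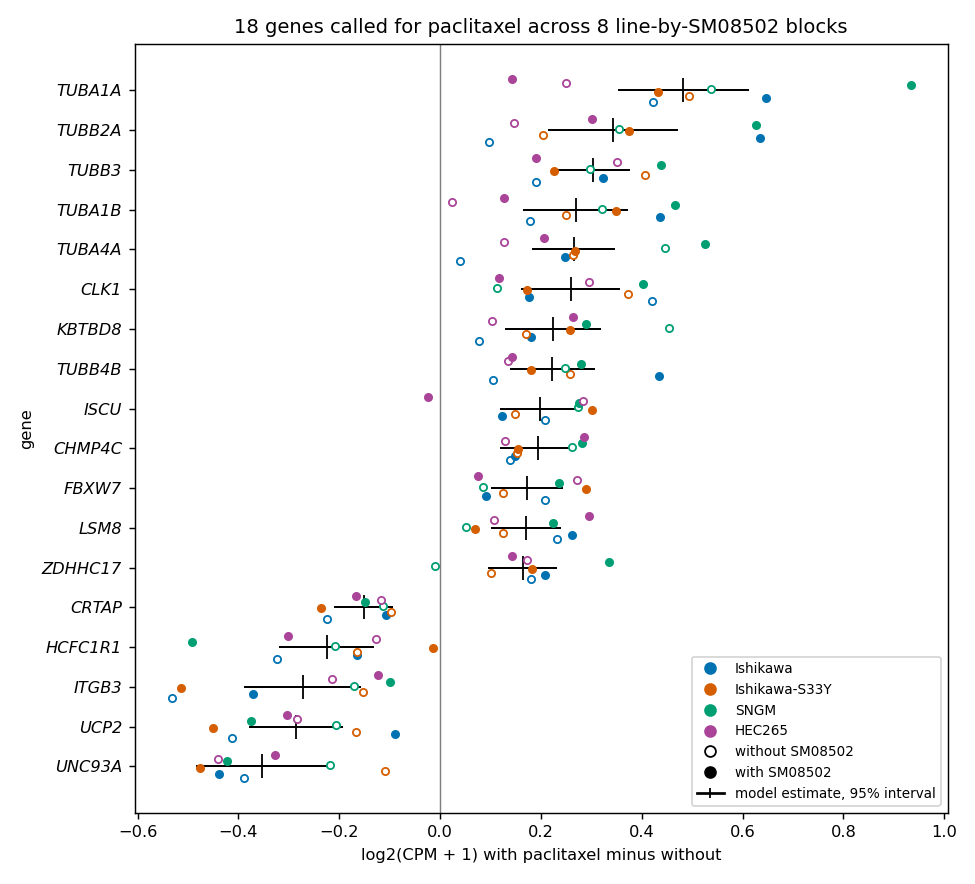
Paclitaxel difference of the 18 called genes in each of the 8 blocks (2 libraries against 2), on the log2(CPM + 1) scale; colours are lines, filled points have SM08502, and black marks are the fitted difference with its 95% interval. All 8 points lie on 1 side of 0 for every gene except ISCU and ZDHHC17, which have 7.

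The 5 genes that fell have varied functions. UCP2, a carrier of the inner mitochondrial membrane (chr11:73974672-73983202), had the smallest p among them. With vehicle and then paclitaxel UCP2 was at 152 and 167 against 131 and 109 CPM in Ishikawa, and at 99.4 and 90.1 against 84.7 and 83.7 CPM in Ishikawa-S33Y. SNGM held 37.4 and 39.7 against 29.6 and 37.4 CPM, and HEC265 40.1 and 36.1 against 32.8 and 29.4 CPM. The difference was -0.29 ± 0.05 (log2, SE; adjusted p = 0.00348, limma), negative in 8 of 8 blocks, with libraries apart in 6. With SM08502 the Ishikawa libraries overlapped, at 132 and 95.4 CPM without paclitaxel and 105 and 106 CPM with it, while the other lines stood apart: 92.9 and 94.1 against 71.7 and 64.9 CPM in Ishikawa-S33Y, 51.4 and 51.2 against 39.5 and 39.2 CPM in SNGM, and 28.3 and 27.1 against 23.8 and 20.8 CPM in HEC265. By line the UCP2 difference was -0.25 in Ishikawa, -0.31 in Ishikawa-S33Y and -0.29 in both SNGM and HEC265.

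UNC93A, a transmembrane protein related to the Toll-like receptor chaperone UNC93B1, was the largest fall, at -0.35 ± 0.06 (adjusted p = 0.0191, limma). Its level was low: 0 to 11.7 CPM (median 2.12) with paclitaxel against 0.352 to 13.3 CPM (median 3.29) without, and with a pseudocount of 0.1 the adjusted p was 0.140. ITGB3, the beta-3 integrin subunit, fell by 0.27 on the log2 scale (SE 0.06, adjusted p = 0.0437, limma). It ranged from 0.200 to 79.8 CPM with paclitaxel and from 0.324 to 88.1 CPM without, the low end being HEC265, where it was at most 0.534 CPM. CRTAP, a component of the collagen prolyl 3-hydroxylation complex, was at 64.3 to 217 CPM (median 124) against 66.4 to 243 CPM (median 129). Its libraries separated in 7 of 8 blocks, with a difference of -0.15 ± 0.03 (adjusted p = 0.0191, limma). HCFC1R1, a regulator of host cell factor HCFC1 whose gene overlaps THOC6, differed by -0.22 ± 0.05 (adjusted p = 0.0401, limma). FZD2, a Wnt receptor, came next without passing the test, at -0.25 ± 0.06 (adjusted p = 0.0708, limma).

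Among the 18, 11 were called in all 32 fits that left out 1 library, including the 6 tubulins, UCP2, UNC93A, CLK1, CRTAP and CHMP4C. The other 7 were called in fewer: ISCU in 25, LSM8 in 21, FBXW7 in 20, HCFC1R1 and ITGB3 in 11 each, ZDHHC17 in 10 and KBTBD8 in 9. The total of calls was 35 and 39 without the first or the second Ishikawa paclitaxel library, 32 without the second Ishikawa SM08502 library and 11 without the second Ishikawa-S33Y paclitaxel library. As a measure of RNA length composition, the average log2 level of 50 genes with long transcripts, less that of 81 ribosomal protein genes, was taken. It differed by -0.08 with paclitaxel over all libraries, and libraries overlapped in all but 2 of the 8 blocks. In Ishikawa replicates lay far apart, at -1.65 and -3.23 with paclitaxel and -2.38 and -3.22 with SM08502. Overlap there does not show that the groups were alike. With that measure as a covariate 99 genes were called, the 18 among them. Without the 2 shallow libraries 29 were called, 14 of the 18 and all 6 tubulins among them. With 1 mean fitted per group 5 of the 18 were called, among them TUBB3, TUBA1A, TUBA4A and TUBB2A but neither TUBB4B nor TUBA1B.

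The same difference was estimated in separate libraries with and without SM08502. Paclitaxel against vehicle alone called 1 gene (0.00588%), TUBB3, at 0.31 ± 0.05 (adjusted p = 0.0364, limma). The combination against SM08502 called 5 (0.0294%). Of these, 4 were tubulins: TUBA1A at 0.54 ± 0.09, TUBB2A at 0.48 ± 0.08, TUBB3 at 0.29 ± 0.05 and TUBA4A at 0.31 ± 0.06, with adjusted p from 0.0225 to 0.0303. The fifth, FLG (filaggrin, of the epidermal barrier; named after its value was seen), stood at -0.57 ± 0.11 (adjusted p = 0.0459). In Ishikawa FLG was at most 0.182 CPM, so its value rests on the other lines. At an unadjusted p under 0.05 there were 459 (2.70%) and 2062 genes (12.1%, limma). The first share is below what that threshold would pass if no gene differed. The spread was shared by all 32 libraries here; fits to 16 libraries each called 0 genes in either set (802 and 1492 at an unadjusted p under 0.05, limma).

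The interaction of paclitaxel with SM08502 called 0 genes (0%; 561 at an unadjusted p under 0.05 with limma, and 1 gene, FLG, called with voom at an adjusted p of 0.0386). For FLG the difference was 0.08 ± 0.11 without SM08502 and -0.57 ± 0.11 with it. TUBB2A was 0.20 ± 0.08 without SM08502 and 0.48 ± 0.08 with it, a difference of 0.28 ± 0.12 (unadjusted p = 0.0217, adjusted p = 0.997, limma). Over the 14 tubulins the median was 0.13 without SM08502 and 0.23 with it. Across 12118 genes of mean log2 level of at least 2, the estimates from the libraries without and with SM08502 correlated at r = 0.28, and those of pairs of lines at 0.12 to 0.27; genes of 1 library share its depth and composition.

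**Figure D4:**
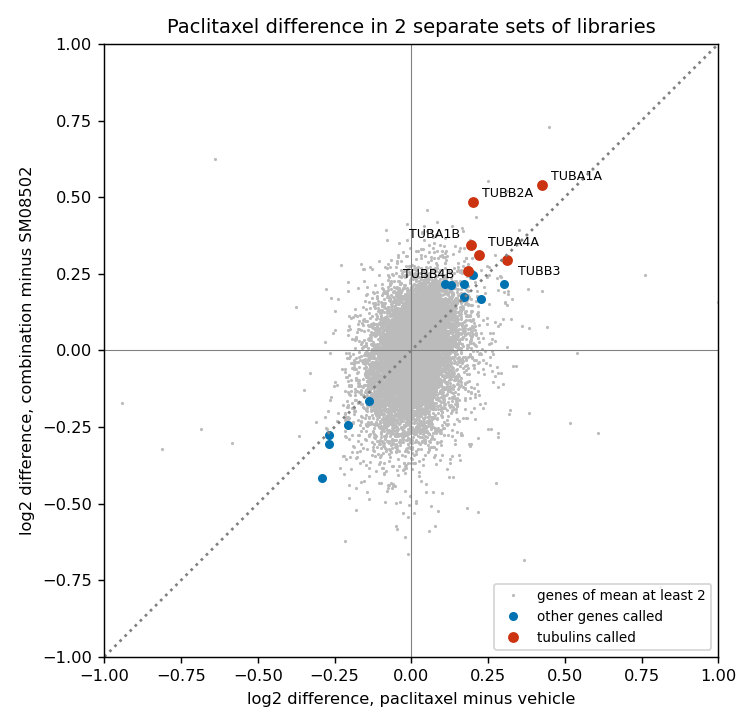
Paclitaxel difference without SM08502 (x axis) and with it (y axis), in log2(CPM + 1), for 12118 genes (1 outside the axes); each axis rests on its own 16 libraries. The 18 called genes have the same sign on both axes, and the 6 tubulins lie in the upper right quadrant. These genes were called from the libraries of both axes together, so their shared sign is no separate evidence.

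Gene lists for other known taxane themes held few calls. Of 24 genes of mitosis and the spindle checkpoint, 0 were called (1 at an unadjusted p under 0.05, limma) and 6 lay above 0. Their median of -0.03 changed sign without SNGM or without the first SNGM combination library. It was 0.04 in Ishikawa (15 above 0) and 0.08 in Ishikawa-S33Y (20), but -0.13 in SNGM (2) and -0.09 in HEC265 (4). The difference between lines in this median was not tested. CCNB1, the mitotic cyclin, differed by 0.04 ± 0.05 (adjusted p = 0.814), PLK1 by -0.10 ± 0.06 (adjusted p = 0.546) and AURKA by -0.01 ± 0.05 (adjusted p = 0.969). Of 25 microtubule regulators 0 were called (2 at an unadjusted p under 0.05) and 12 lay above 0, with a median of -0.00 whose sign varied with the setting. With voom, too, 0 genes of these lists were called. MAP4, a microtubule stabiliser, stood at -0.13 ± 0.11 (adjusted p = 0.695), STMN1, which sequesters tubulin dimers, at -0.01 ± 0.04 (adjusted p = 0.939) and MAPRE1, which tracks growing plus ends, at 0.03 ± 0.05 (adjusted p = 0.822). TTC5, the factor that recognises nascent tubulin in autoregulation and was named after its value was seen, stood at 0.08 ± 0.05 (adjusted p = 0.555, limma).

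All 20 p53 targets had estimates above 0, against 53.3% of all genes, with a median of 0.08. Of the 20, 0 were called (smallest adjusted p = 0.216, limma). At an unadjusted p under 0.05 there were 7, against 11.1% of all genes. The number above 0 was 19 with median re-centring, 18 with quantile normalization and 16 with voom, which called PLK3, a polo-like kinase, at 0.24 ± 0.05 (adjusted p = 0.0358). CDKN1A, the p21 cell cycle inhibitor, stood at 0.13 ± 0.05 (adjusted p = 0.338), MDM2 at 0.10 ± 0.04 (adjusted p = 0.310) and GDF15 at 0.04 ± 0.08 (adjusted p = 0.892). The p53 list's median was 0.13 without SM08502 and 0.04 with it. By line it was 0.18 in SNGM and 0.15 in HEC265, but 0.01 in Ishikawa and 0.00 in Ishikawa-S33Y. These differences of medians were not tested. In the list of replication and E2F targets 0 of 20 were called (3 at an unadjusted p under 0.05), with a median of -0.05; MCM2 was at -0.07 ± 0.07 (adjusted p = 0.735), PCNA at 0.06 ± 0.05 (adjusted p = 0.683) and CCNE1 at 0.03 ± 0.04 (adjusted p = 0.842). BCL2 family genes gave 0 calls of 15 tested (4 at an unadjusted p under 0.05), with BCL2 at -0.11 ± 0.05 (adjusted p = 0.439), BCL2L1 at -0.08 ± 0.04 (adjusted p = 0.439) and MCL1 at 0.05 ± 0.04 (adjusted p = 0.687). The BCL2 family median, 0.02, was -0.02 with voom, and voom called 0 genes of both lists. Some lists share members: BAX and BBC3 were in the p53 and BCL2 family lists. SESN2 was in the p53 and integrated stress response lists, and ATF3 in the immediate early and integrated stress response lists.

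Cytoskeletal target genes of SRF, which responds to the actin monomer pool, had the lowest median of the 16 lists, -0.13. Of its 20 members 1 lay above 0, against 53.3% of all genes. None passed the test (0 called, 9 at an unadjusted p under 0.05, against 11.1% of all genes, limma). ACTB was at -0.13 ± 0.05 (adjusted p = 0.328), ACTG1 at -0.08 ± 0.04 (adjusted p = 0.464), VCL at -0.14 ± 0.07 (adjusted p = 0.432) and TAGLN, named after its value was seen, at -0.32 ± 0.08 (adjusted p = 0.0909). Voom called ACTB, at -0.16 ± 0.03 (adjusted p = 0.0208), and TAGLN, at -0.35 ± 0.07 (adjusted p = 0.00824). The SRF list's median ran from -0.01 in HEC265 over -0.08 in SNGM and -0.12 in Ishikawa-S33Y to -0.27 in Ishikawa. YAP and TEAD targets had a median of -0.05 with 0 of 20 called (2 at an unadjusted p under 0.05); ANKRD1 was at 0.23 ± 0.08 (adjusted p = 0.305), CYR61 at -0.05 ± 0.05 (adjusted p = 0.757) and CTGF at 0.13 ± 0.09 (adjusted p = 0.606). With voom 2 of this list were lower: AXL, a receptor tyrosine kinase, at -0.22 ± 0.05 (adjusted p = 0.0265) and IGFBP3, which binds insulin-like growth factors, at -0.22 ± 0.05 (adjusted p = 0.0457).

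The NF-kappaB and cytokine list had a median of 0.09 with 16 of 20 above 0, against 53.3% of all genes. In it 0 were called (7 at an unadjusted p under 0.05, against 11.1% of all genes, limma). This median was 0.25 in SNGM (19 above 0) and 0.13 in HEC265 (17). In Ishikawa it was -0.01 and in Ishikawa-S33Y -0.02 (9 above 0 in each), a difference between lines that was not tested. CCL20 was at 0.17 ± 0.07 (adjusted p = 0.328), CXCL8 at 0.23 ± 0.12 (adjusted p = 0.487) and NFKBIA at 0.12 ± 0.03 (adjusted p = 0.177). Voom called 4 of the list higher: CXCL2 at 0.56 ± 0.12, CXCL8 at 0.49 ± 0.11, TNFAIP3, the A20 inhibitor of NF-kappaB, at 0.30 ± 0.07 and IER3 at 0.20 ± 0.04, with adjusted p from 0.0209 to 0.0434. CXCL2 held 10.8 to 18.1 CPM in SNGM but at most 0.305 CPM in any library of another line, so no rise can be read from those lines. By line the limma difference of CXCL8 was 1.01 ± 0.16 for SNGM and 0.39 ± 0.16 for HEC265. It was -0.25 ± 0.16 for Ishikawa and -0.22 ± 0.16 for Ishikawa-S33Y, where CXCL8 was at most 0.671 CPM. Immediate early genes had a median of 0.07 and 0 calls of 20 (6 at an unadjusted p under 0.05), with FOS at -0.10 ± 0.07, JUN at -0.00 ± 0.06 and EGR1 at -0.03 ± 0.12 (adjusted p from 0.635 to 0.991). Wnt targets had a median of -0.07 and 0 calls of 19 tested (0 at an unadjusted p under 0.05), with AXIN2 at -0.05 ± 0.06, LEF1 at 0.12 ± 0.07 and NKD1 at -0.08 ± 0.11 (adjusted p from 0.533 to 0.826). Of these 2 lists voom called 0 genes.

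The lists of the integrated stress response, cholesterol synthesis, interferon-stimulated genes and drug efflux and uptake each had 0 calls, with 3 of 20, 6 of 20, 0 of 18 and 0 of 12 tested at an unadjusted p under 0.05 (limma), and 0 calls with voom. Their medians, 0.01, -0.00, -0.02 and -0.05, changed sign under at least 1 alternative. DDIT3 was at 0.13 ± 0.06, ATF4 at 0.07 ± 0.04 and ASNS at -0.00 ± 0.04. HMGCS1, of the cholesterol list, was at 0.13 ± 0.04. Of the interferon-stimulated genes ISG15 stood at 0.14 ± 0.08, IFIT1 at 0.08 ± 0.06 and IFIT3 at 0.02 ± 0.07. ABCB1, the efflux pump that exports taxanes, stood at -0.17 ± 0.12, ABCC1 at -0.11 ± 0.07 and ABCG2 at -0.04 ± 0.05 (adjusted p from 0.550 to 0.762).

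**Figure D5:**
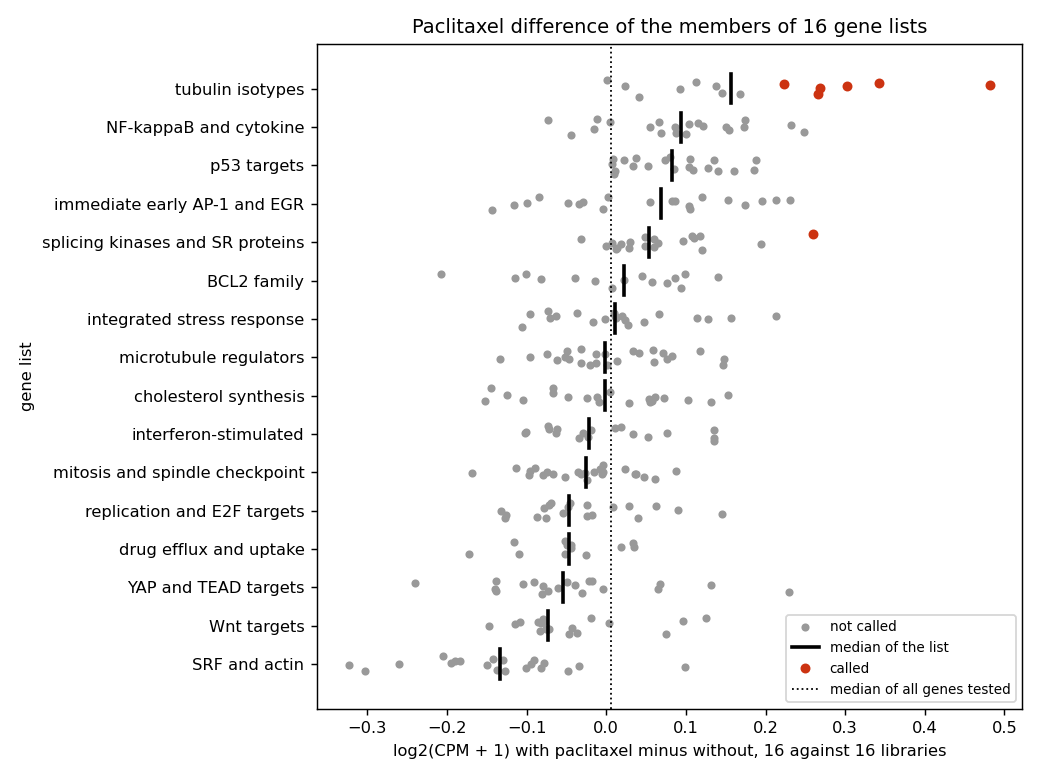
Paclitaxel difference of each tested member of the 16 gene lists on the log2(CPM + 1) scale, with called genes in red, list medians as black bars and the median of all 17011 genes dotted. The tubulin list has the highest median, 0.16, and holds 6 of the 7 called points; the SRF and actin list has the lowest, -0.13.

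SNGM had 10 calls (0.0588%), of which 9 were higher; the counts of single lines moved too much with the setting to rank the lines, as Ishikawa had 43 against 18 in SNGM with no filter and 582 against 36 with array weights. TUBA4A came first, at 0.49 ± 0.07 (adjusted p = 0.00172), then ANKRD1, a YAP target and cardiac ankyrin repeat protein, at 0.77 ± 0.11 (adjusted p = 0.00196, limma). ANKRD1 was at 20.3 ± 4.5 CPM with paclitaxel and 11.7 ± 3.5 CPM without (SD, n = 4). Each of these 4 libraries were 2 without and 2 with SM08502, so the SD includes any SM08502 difference. The other calls, named after their values were seen, were TUBA1A, SERPINA3, CXCL8, CXCL2, RHOBTB3, PLPP3 and CTGF, which rose, and PSG4, which fell. SERPINA3 and RHOBTB3 were low in SNGM, at means of 4.81 and 3.24 CPM with paclitaxel and 1.81 and 2.13 CPM without. In the shallow SNGM combination library 1 read is 0.622 CPM. CXCL8, the neutrophil chemokine, was at 53.9 ± 14.6 CPM with paclitaxel and 25.7 ± 3.1 CPM without (SD, n = 4, over both SM08502 states). The CXCL8 difference was 1.01 ± 0.16 on the log2 scale. The Ishikawa differences were -0.25 ± 0.16 for CXCL8 and -0.22 ± 0.11 for ANKRD1, and the test among lines gave an adjusted p of 0.0838 for each (limma F test), so neither was shown to differ between lines. The SNGM count was 239 without the first SNGM combination library, 6 without the second SNGM paclitaxel library or the first SNGM SM08502 library, and 0 in a fit to the SNGM libraries alone (573 at an unadjusted p under 0.05).

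Ishikawa had 2 calls (0.0118%), both of mean log2 level under 1 and named after their values were seen: SSU72P4 higher and NXF2B lower. Both have near-identical copies in the genome, among which reads may have been split. The Ishikawa count was 30 without the second SM08502 library of that line 7 without its first paclitaxel library and 4 without either SNGM combination library. Ishikawa-S33Y and HEC265 had 0 calls each with limma (0%) and 0 with voom. At an unadjusted p under 0.05 they had 1152 (6.77%) and 349 genes (2.05%, limma). Leaving out the first Ishikawa-S33Y combination library gave 11 calls in that line and leaving out its second SM08502 library 1; without the second HEC265 combination library HEC265 had 1. The test among lines called 1 gene, SSU72P4 (0.00588%), with 551 genes (3.24%) at an unadjusted p under 0.05 (limma F test). It called between 0 and 7 when single libraries were left out, the 7 without the first SNGM combination library. SSU72P4 was at or near 0 in the other lines, so this call does not show that lines making the transcript respond differently.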

How the data were processed

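Bulk RNA was sequenced in 32 libraries after ribosomal depletion. Per the submitters' processing notes, bcl2fastq, STAR and kallisto were used with build GRCh38; which of them counted genes, with which annotation and whether by strand, is not given in the sources used here. The authors deposited log10(CPM + 1) for 35238 genes, as the file's values show. Back-transformed CPM sum to 1000000 per library, and 100% of the nonzero values checked are whole reads within 0.05 of a read. The highest counts were not part of that check. Depth was 13026400 to 34127623 reads in 30 libraries and lower in 2; counting intervals are not given, since the spread between libraries sets the error.

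The log10 was undone and log2(CPM + 1) tested, a pseudocount of 1, for 17011 genes above 1 CPM in at least 2 libraries. limma 3.58.1 (R 4.3.3) fitted a paclitaxel term with the 8 line-by-SM08502 blocks to all libraries, with an intensity trend; other terms gave the SM08502 and line comparisons. Tests were two-sided, p-values were Benjamini-Hochberg adjusted over all genes, and a gene was called under 0.05. Tested on simulated data for the main comparison on 17011 genes, the fit recovered 76.1% of 67 genes changed by 0.25 on the log2 scale. It recovered 94.0% of 67 at 0.5 and 100% of 66 at 1. The changed genes were drawn from the better expressed ones, with the same change in all 8 blocks and noise independent between genes. Recovery of low genes, of changes that differ between blocks, or with fewer changed genes was not tested.

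The comparison, the 16 gene lists and the 4 marker lists were chosen with earlier results of these data known. Named by rule were all called genes, the next gene to fill a direction to 6, 2 calls per line or interaction of mean log2 level of at least 1, and the first 3 and every called member of each list. Genes named from voom calls were picked with those results in view. Some members that the rule names are not reported here. Places and promoters come from RefSeq (GRCh38.p14); all 71 symbols looked up matched, and 5 of the 18 called genes overlap another. Alternatives covered filter, pseudocount, scaling, weights, replicate block, voom on recovered reads, length score and left-out libraries or lines. Splicing tables were not used here.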

Additional observations from a re-analysis of the deposited data

Results flagged for a closer look

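The paclitaxel difference of SSU72P4, by its symbol a copy of SSU72, a phosphatase of RNA polymerase II, passed the F test among lines (limma, adjusted p = 0.0312 over 17011 genes). In Ishikawa it was at 1.48 and 1.46 CPM with vehicle, 3.25 and 5.72 with paclitaxel, 1.27 and 1.58 with SM08502, and 2.87 and 2.76 with both. All 4 Ishikawa libraries with paclitaxel were above the 4 without. In SNGM and HEC265 it was listed at 0 in every library, and in Ishikawa-S33Y in all but 1, so no difference could be measured there. The test therefore sets Ishikawa against lines without measurable transcript and does not show that the response differs between lines that make it. This test gave 0 calls with the stricter filter, which left the gene out, and also with the pseudocount of 0.1, median re-centring, quantile normalization, 1 mean per group, the replicate block and voom, and in 23 of 32 fits without 1 library.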

How the results depend on the processing

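The main count of 18 calls was 5 with 1 mean per group, 113 with voom, 99 with the length score, 29 without the 2 shallowest libraries and 654 with array weights. It was 11, 1, 2 and 3 without Ishikawa, Ishikawa-S33Y, SNGM and HEC265, and 11 to 39 leaving out 1 library. Chosen after seeing the data, the libraries without SM08502 and those with it gave 0 each (802 and 1492 at an unadjusted p under 0.05). The share of higher calls was 72.2% as reported, 31.2% with median re-centring and 36.8% with quantile normalization. Replicate numbers were not taken to pair the libraries, since the correlation of same-numbered deviations across genes, -0.38 to 0.61, was over 0.1 in only 3 of 8 blocks. The replicate block gave 18 calls, 13 of them shared (LSM8, ZDHHC17, HCFC1R1, ITGB3 and KBTBD8 were at an adjusted p of 0.0518 to 0.0670), and 0 for the line interaction (602 at an unadjusted p under 0.05). For the line interaction (1 call), settings gave 6 with no filter, 52 with array weights, 10 with the length score and 4 without the shallow libraries. It was 0 with the stricter filter, the pseudocount of 0.1, median re-centring, quantile normalization, 1 mean per group, voom, or without Ishikawa-S33Y or HEC265 (339 to 673 at an unadjusted p under 0.05), and 0 to 7 leaving out 1 library. The SM08502 interaction (0 calls) was 1 with voom and 0 to 0 leaving out 1 library. Ishikawa (2 calls) gave 43 with no filter, 582 with array weights, 1 with voom, 11 with the length score, 11 without the shallow libraries, and 0 with the stricter filter, the pseudocount or its own samples alone (503, 685 and 515 at an unadjusted p under 0.05); leaving out 1 library gave 2 to 30. Ishikawa-S33Y (0 calls) gave 16 with no filter, 2 with quantile normalization, 19 with array weights, 1 with its own samples and 0 to 11 leaving out 1 library. SNGM (10 calls) gave 18 with no filter, 5 with the pseudocount, 36 with array weights, 20 with voom, 19 with the length score, 0 with its own samples (573 at an unadjusted p under 0.05) and 6 to 239 leaving out 1 library. HEC265 (0 calls) gave 9 with no filter, 1 with the pseudocount, 490 with array weights, 1 with its own samples and 0 to 1 leaving out 1 library. Of 102 counts under settings other than leaving out 1 library, 55 stayed within 1.5 times. The cause of these moves was not tested. No called gene changed direction; the 18 lost their call in 142 of 323 values outside the single-library fits. The planned edgeR and DESeq2 tests were not run; voom was the test on recovered reads.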
